A study of Homo sapiens with 18 samples.

Results

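SK-N-BE(2) neuroblastoma cells that carried the hairpin shERK5-4 were compared with SK-N-BE(2) cells that carried the control hairpin shNSC. The labels place 3 arrays in each of these groups, so 6 of the 18 arrays of the series enter the comparison. The other arrays hold SK-N-BE(2) cells with a second hairpin against ERK5, shERK5-5, and the same 3 hairpin conditions in a second neuroblastoma line, CHLA-90. SK-N-BE(2) is a human line that carries extra copies of the oncogene MYCN, as many aggressive neuroblastomas do. Every group, controls included, received lentivirus with a pLKO vector packaged in HEK-293T cells, at 250000 cells per well in medium with 20% serum. RNA was taken 72 hours after transduction from biological triplicates. The samples are wells of 1 cell line, the labels name no clone, and the sources used here do not give the share of cells that took up virus. The replicates are said to be biological, with no word on separate transductions. The p-values therefore measure only the spread between samples of a group, pooled over the 18 arrays of the series.

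ERK5, encoded by MAPK7, is a mitogen-activated protein kinase that is switched on by its upstream kinase MEK5 (MAP2K5). It phosphorylates transcription factors of the MEF2 family and also carries a transcription activation domain of its own. The cascade is known for roles in proliferation and survival. A short hairpin RNA is processed by the small RNA machinery into a guide that lowers its target transcript, and a guide can also lower other transcripts that match its seed.

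Values are on a log2 scale as deposited, with 1 signal for each probe on each array, so a difference of 1 is a 2-fold change. The 6 arrays had medians between 5.65 and 5.69. Over all probes, shNSC arrays correlated with each other at r between 0.994 and 0.995, shERK5-4 arrays at 0.988 to 0.992, and shNSC with shERK5-4 arrays at 0.974 to 0.979. The shERK5-4 arrays were the more spread, with a median distance of a probe from its group mean of 0.153 to 0.177, against 0.113 to 0.127 for shNSC. Precision is limited by having 3 arrays a group.

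The label of the cells was checked against markers. Of 11 markers of adrenergic neuroblastoma 10 were measured, and MYCN reached 17.13 in the shNSC group, ISL1 13.84 and STMN2 14.70, while DBH, which makes noradrenaline, was dim at 4.87 ± 0.24 (SD, n = 3). Endothelial markers (8 measured) lay at 6.06 or below and Schwann cell markers (7 measured) at 5.26 or below. Fibroblast genes were not all dim, since LUM stood at 14.49, THY1 at 12.99 and DCN at 11.08. Blood markers (9 measured) lay at 7.90 or below, the level of PTPRC, the leukocyte phosphatase CD45.

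The targeted transcript was lower with shERK5-4. MAPK7 read 6.99, 6.46 and 6.90 in the shNSC arrays and 5.97, 6.28 and 6.02 in the shERK5-4 arrays. The groups did not overlap, and the second shNSC array lay closest to the hairpin arrays. The log2 change was -0.69 ± 0.19 (SE, n = 3 a group), which is 61.8% of the shNSC level (adjusted p = 0.0103, limma over all 21448 probes). Without shNSC replicate 1 it was -0.59, with adjusted p = 0.061. Of the other genes of the cascade, MAP2K5 rose by 0.95 ± 0.23 (adjusted p = 0.0034) and MEF2A fell by 1.29 ± 0.19 (adjusted p = 2.15e-05), while MEF2C (0.19) and MEF2D (0.49) did not pass the test. In all, 6 of 18 measured genes of the cascade and its reported targets fell and 1 rose. With shERK5-5 against shNSC, 3 of these 18 genes fell and 7 rose. Over all probes, 11.7% fell and 12.2% rose with shERK5-4, and 6.07% fell and 6.76% rose with shERK5-5.

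At an adjusted p below 0.05, 5133 of the 21448 probes differed between the groups, which is 23.9% of all probes. The 2616 higher probes are 12.2% of all and the 2517 lower ones 11.7%. All 3 shERK5-4 arrays lay above all 3 shNSC arrays at 3558 probes (16.6%) and below them at 3462 (16.1%). The smallest difference called was 0.39 and the median size of a called difference 0.92. Among large changes there were more decreases, with 263 probes lower by at least 2 against 119 higher by at least 2, and 58 lower by at least 3 against 18 higher by that much. The median change over all probes was 0.01 and the quartiles were -0.24 and 0.28. The share called was larger at brighter probes, from 2.11% in the dimmest quartile of mean signal to 36.1% in the quartile below the brightest and 45.6% in the brightest.

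**Figure D1:**
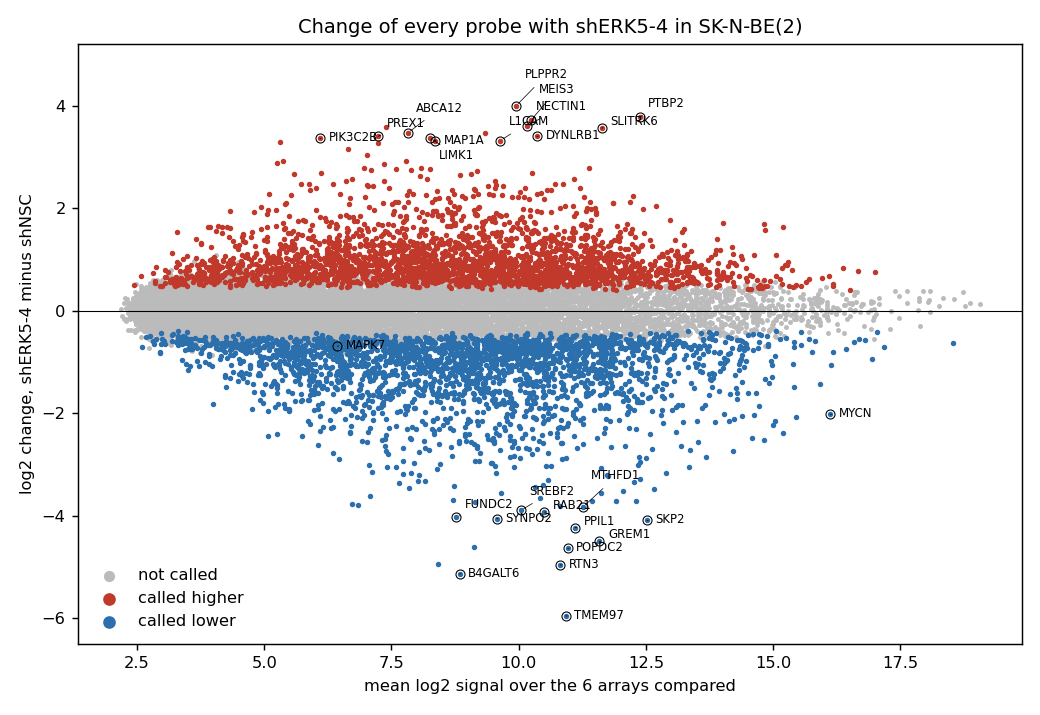
Each dot is 1 of 21448 probes, with its mean log2 signal over the 6 arrays on the x axis and its log2 change with shERK5-4 on the y axis (red: 2616 called higher, blue: 2517 called lower, grey: not called). TMEM97 at -5.96 is the lowest and PLPPR2 at 3.99 the highest, and dots called are scarce at dim signals.

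The deepest decrease was in TMEM97, the sigma-2 receptor, a membrane protein that binds the cholesterol transporter NPC1. It read 13.84, 13.85 and 14.03 with shNSC and 8.16, 7.64 and 8.05 with shERK5-4. The change of -5.96 ± 0.16 left 1.61% of the control signal (adjusted p = 1.75e-16). B4GALT6, a lactosylceramide synthase, went from 11.24, 11.61 and 11.37 to 6.25, 6.16 and 6.4 (-5.14 ± 0.20). RTN3, a reticulon that shapes the endoplasmic reticulum, went from 13.36, 13.18 and 13.35 to 8.4, 7.94 and 8.66 (-4.96 ± 0.19). In these 3 genes the gap between the groups was many times the spread within either.

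POPDC2, a cyclic AMP binding membrane protein, fell by 4.64 ± 0.21. GREM1, a secreted antagonist of bone morphogenetic proteins, read 13.63, 13.65 and 14.23 with shNSC and 9.96, 8.22 and 9.82 with shERK5-4, a decrease of 4.50 ± 0.33 in which the second shERK5-4 array was the lowest. PPIL1, a prolyl isomerase of the spliceosome, fell by 4.24 ± 0.20. SKP2, the substrate receptor of the ubiquitin ligase that degrades the CDK inhibitor p27, read 14.49, 14.5 and 14.71 against 10.88, 10.27 and 10.27 (-4.09 ± 0.17), so 5.86% of its signal was left. The actin-binding protein gene SYNPO2 (-4.06), the mitochondrial outer membrane gene FUNDC2 (-4.03), the endosomal GTPase gene RAB21 (-3.93), the sterol regulator SREBF2 (-3.90) and MTHFD1, an enzyme of one-carbon metabolism (-3.84), completed the 12 deepest decreases, all with adjusted p of 6.69e-10 or less.

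The greatest increase was in PLPPR2, a brain-enriched phosphatase-related membrane protein. It read 7.41, 8.26 and 8.18 with shNSC and 11.95, 11.84 and 12.03 with shERK5-4 (3.99 ± 0.23, adjusted p = 1.31e-11). PTBP2, the neuronal polypyrimidine tract binding protein that regulates splicing, went from 10.44, 10.61 and 10.42 to 14.47, 14.23 and 14.11 (3.78 ± 0.15). L1CAM, a neural adhesion molecule, went from 8.03, 7.84 and 8.06 to 11.58, 10.7 and 11.58 (3.31 ± 0.21). None of these groups overlapped, which the rule that picked these genes required.

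SLITRK6, a synaptic and inner ear adhesion protein, rose by 3.56 ± 0.22, NECTIN1, an adhesion molecule, by 3.61 ± 0.25 and MAP1A, a microtubule protein of neurons, by 3.31 ± 0.28. MEIS3, a homeobox factor, rose by 3.71 ± 0.24. PREX1, an exchange factor for RAC, rose by 3.40 ± 0.23, LIMK1, the kinase that inactivates cofilin, by 3.37 ± 0.28 and PIK3C2B, a class II PI3-kinase, by 3.36 ± 0.27. ABCA12, a lipid transporter, rose by 3.46 ± 0.21 and DYNLRB1, a dynein light chain, by 3.40 ± 0.18. Their adjusted p was 6.21e-09 or less.

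**Figure D2:**
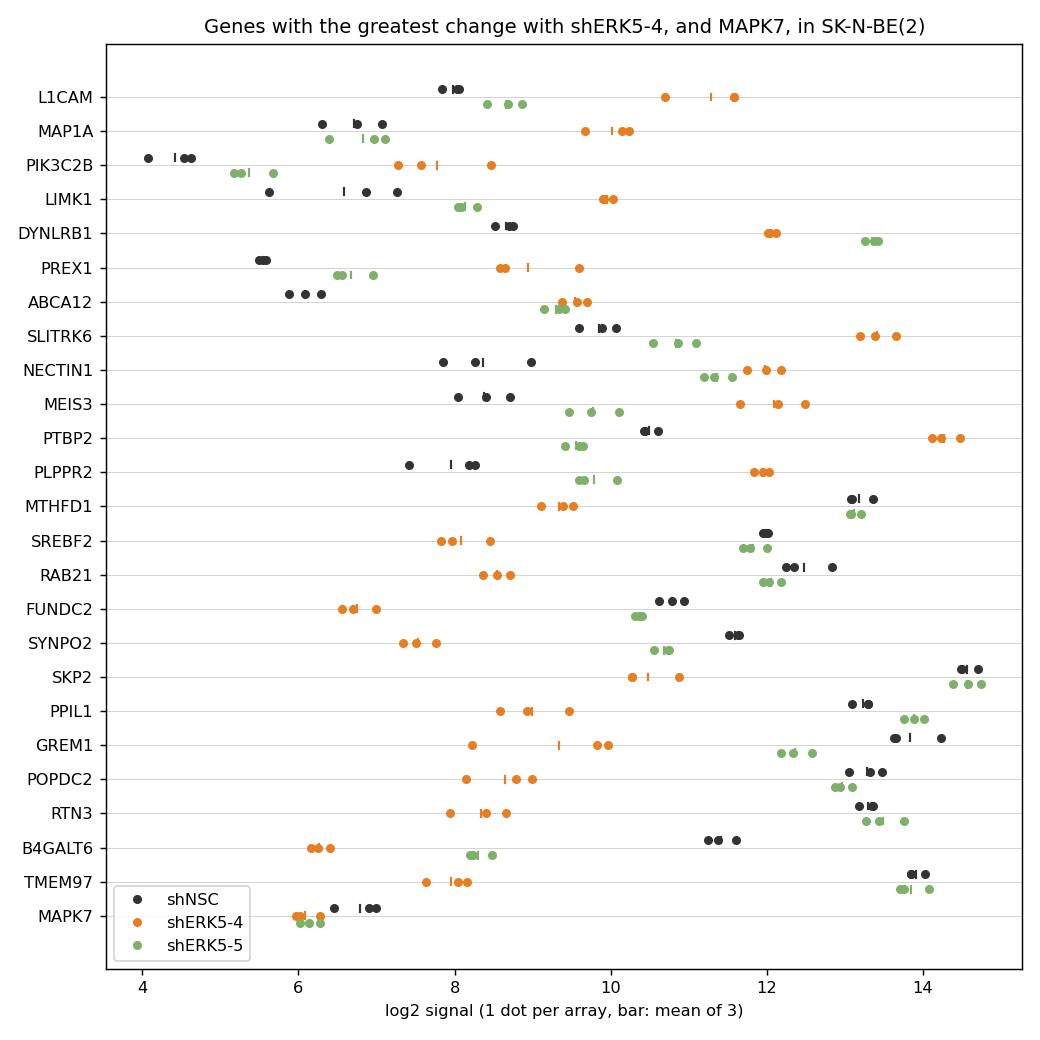
Log2 signals of MAPK7 and of the 12 genes in each direction with the greatest change with shERK5-4, 1 dot per array and a bar for each mean (shNSC dark, shERK5-4 orange, shERK5-5 green, 3 arrays each). The 12 genes in each direction were chosen among those whose shERK5-4 and shNSC arrays do not overlap, so their separation is given by that rule. MAPK7 was not chosen so, and its shERK5-4 arrays also lie clear of shNSC. The shERK5-5 arrays lie near shNSC for TMEM97, RTN3 and SKP2 and near shERK5-4 for ABCA12 and MAPK7.

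Genes were next read in 37 lists by pathway or cell type, 983 entries of which 878 were measured. They are described by counts and medians, beside 12.2% of probes higher, 11.7% lower and a median of 0.01 over all probes. A gene can belong to several lists, so the counts of different lists are not independent. The share called grew with signal, to 36.1% in the quartile below the brightest and 45.6% in the brightest. For lists of bright genes, such as mitosis (median shNSC level 11.54), the shares of all probes are therefore a low mark. No share matched for signal was computed.

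**Figure D3:**
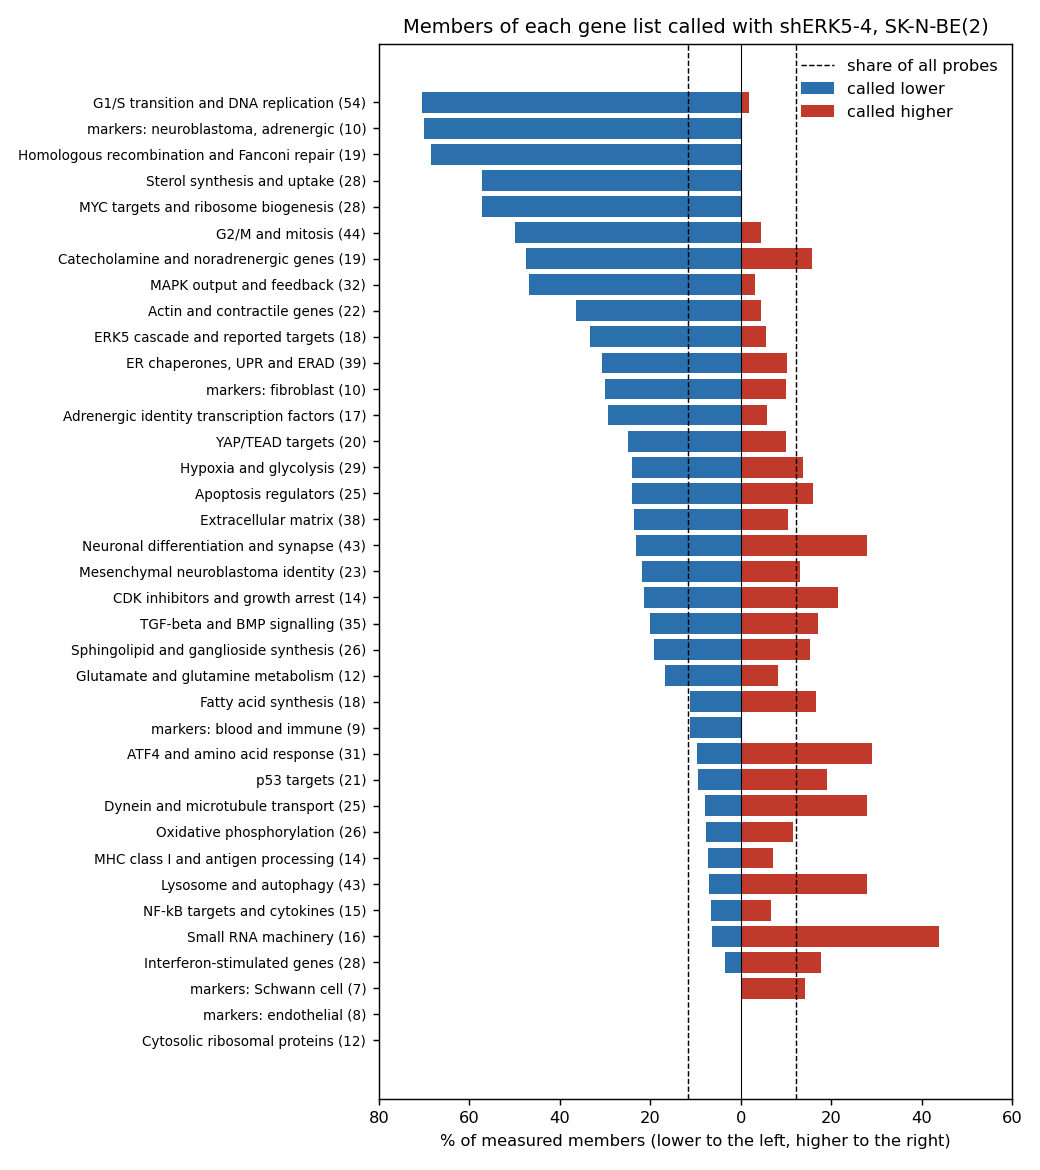
Share of the measured members of each list (number in brackets) that were called lower (blue, to the left) or higher (red, to the right) with shERK5-4 in SK-N-BE(2). The dashed lines mark 11.7% and 12.2%, the shares of all probes. The G1/S list reaches furthest to the left (38 of 54) and small RNA machinery furthest to the right (7 of 16).

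Genes that take cells from G1 into DNA replication were lower as a group. Of 54 measured G1/S and replication genes 38 fell and 1, RB1, rose (0.52), with a median change of -0.89. In background, E2F factors are held in check by the RB proteins and, once released, switch on the genes of licensing (loading of the MCM helicase at origins), of the replication fork and of nucleotide supply. Under the alternative settings 34 to 40 members were called.

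Among cyclins and kinases 4 of 9 fell. CDK6, a G1 kinase, read 12.26, 12.33 and 12.15 with shNSC and 8.97, 8.26 and 8.52 with shERK5-4, a change of -3.66 ± 0.18 (adjusted p = 1.59e-12). CCNE2 (cyclin E2) went from 9.33, 9.53 and 9.37 to 6.76, 7.13 and 6.7 (-2.55 ± 0.24), whereas CCNE1 (cyclin E1) was at 0.46 and did not pass the test. CCND1 (cyclin D1) changed by -1.18 and CDK2 by -1.07, both called, and CDK4 was at -0.47 without a call. Leaving out an array gave a call for CCNE1 (0.69 without shNSC replicate 1) and for CDK4 (-0.69 without shERK5-4 replicate 3). The fall in CDK6 was the deepest of the list.

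In the E2F and RB group 4 of 8 fell. E2F8, a repressor E2F, went from 8.57, 8.52 and 8.71 to 6.17, 5.93 and 6.41 (-2.43 ± 0.18). E2F1 itself read 7.05, 7.05 and 7.76 against 5.36, 6.64 and 5.46, a change of -1.47 ± 0.47 (adjusted p = 0.0234), with the second shERK5-4 array well above the other hairpin arrays. Leaving out shNSC replicate 3 ended the call (-1.23, adjusted p = 0.111), as did leaving out shERK5-4 replicate 1 (-1.24, adjusted p = 0.100) or shERK5-4 replicate 3 (-1.29, adjusted p = 0.0898).

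Licensing genes were the most uniform, with 11 of 12 lower and a median of -1.05, CDT1 (-0.42) being the member without a call. CDC6, which loads the MCM helicase, read 11.72, 11.99 and 11.71 against 9.82, 8.96 and 9.47 (-2.39 ± 0.19). All 6 subunits of the MCM2-7 helicase fell, by 0.75 (MCM2) to 1.47 (MCM5). At the fork 12 of 16 fell, led by DTL, the substrate receptor that removes CDT1 during replication, which went from 12.98, 13.2 and 12.94 to 11.11, 10.69 and 10.93 (-2.13 ± 0.15). RFC3, a subunit of the clamp loader, changed by -1.91, CDC45 by -1.73, the flap nuclease FEN1 by -1.69 and the polymerase alpha subunit POLA2 by -1.65, all called, while POLE (0.11), POLD1 (-0.19) and LIG1 (-0.12) were not. In nucleotide supply and chromatin assembly 7 of 9 fell, among them the chromatin assembly subunit CHAF1A (-1.90) and the ribonucleotide reductase subunit RRM2 (-1.53).

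The promoters of this list were searched for letters of the E2F motif, since E2F factors act there. The letters were TTTCGCGC, TTTGGCGC, TTTCCCGC and TTTGCCGC on both strands, within the 250 bases before the start, in the RefSeq promoters of GRCh38.p14. They occur in 979 of 35116 promoters (2.79%) and in 21 of the 47 measured list members with a promoter (44.7%). The first share counts promoters and the second counts genes with the letters in any of their promoters, so the units differ. Within the list, 14 of the 21 members with the letters fell (66.7%) and 18 of the 26 without them (69.2%). The difference between these shares was not tested. Over all measured genes, 137 of 648 with the letters fell (21.1%) and 104 rose, against 12.4% lower and 13.3% higher of the 13602 without them. A match is a description of the sequence and not a measured site. The windows shown are those of E2F1 and of licensing and fork genes picked because they fell and hold the letters. Members that fell without the letters, or hold them and did not fall, have no window here. The windows each span 80 bases in the gene's own direction, with the motif letters of either strand in capitals. They lie at chr1:212035668-212035747 (DTL, plus strand), chr13:33818058-33818137 (RFC3, plus), chr11:65261873-65261952 (POLA2, plus), chr2:135876519-135876598 (MCM6, minus) and chr20:33686386-33686465 (E2F1, minus).
DTL: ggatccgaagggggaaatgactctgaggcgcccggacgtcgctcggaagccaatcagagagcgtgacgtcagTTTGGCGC
RFC3: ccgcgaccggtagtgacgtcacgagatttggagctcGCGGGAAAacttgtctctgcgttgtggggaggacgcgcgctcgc
POLA2: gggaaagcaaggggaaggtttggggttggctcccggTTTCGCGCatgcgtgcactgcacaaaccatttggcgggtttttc
MCM6: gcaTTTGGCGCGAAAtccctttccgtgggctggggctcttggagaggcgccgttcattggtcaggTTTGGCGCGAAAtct
E2F1: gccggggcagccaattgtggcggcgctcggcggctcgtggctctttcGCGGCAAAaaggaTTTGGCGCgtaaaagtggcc

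In MCM6 the matches on the opposite strands overlap, which gives 4 matches in the window. Its signal changed by -1.19.

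Genes of G2 and mitosis fell less uniformly, with 22 of 44 lower, 2 higher and a median of -0.48. FOXM1, a transcription factor of the mitotic genes, read 13.12, 13.12 and 13.21 with shNSC and 10.61, 10.26 and 10.59 with shERK5-4 (-2.66 ± 0.15, adjusted p = 9.58e-12). CCNA2 (cyclin A2) went from 14.5, 14.44 and 14.59 to 12.05, 11.81 and 11.76 (-2.64 ± 0.15), and BIRC5 (survivin) from 9.81, 9.11 and 9.58 to 6.58, 6.55 and 7.33 (-2.68 ± 0.23). In each of these 3 genes every shERK5-4 array lay below every shNSC array. The kinase genes AURKB (-2.15) and AURKA (-1.28) fell, while PLK1 (0.06), CDC20 (-0.06) and the proliferation marker MKI67 (0.01) did not pass the test. The 2 that rose were the phosphatase CDC25B (1.08) and the kinase WEE1 (0.84), which act on CDK1 in opposite ways.

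Homologous recombination and Fanconi repair genes were lower in 13 of 19 measured members and higher in 0 by limma (15 and 0 at an unadjusted p under 0.05), with a median of -0.80. FANCC, of the Fanconi core complex, went from 9.88, 9.74 and 9.55 to 8.57, 8.14 and 8.34 (-1.37 ± 0.19), the nuclease EXO1 changed by -1.18 ± 0.18 and BRCA1 by -1.03 ± 0.19, with adjusted p of 0.000175 or less. The list held no member outside -1.37 to 0.13.

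**Figure D4:**
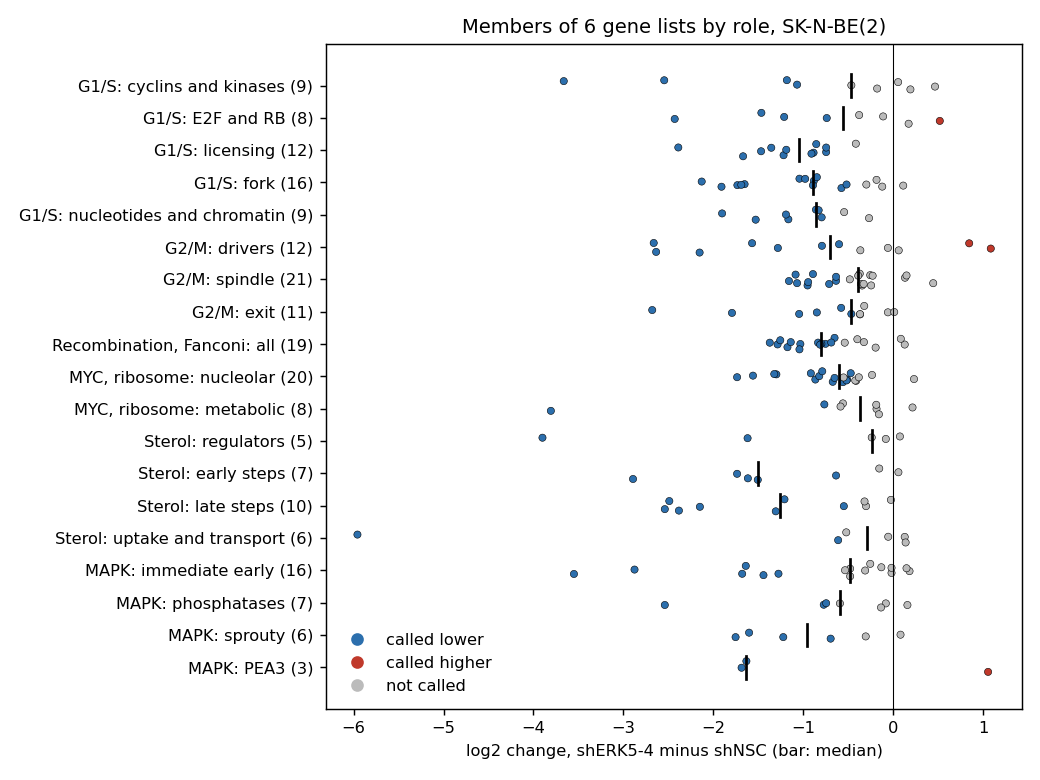
Log2 change with shERK5-4 of each measured member of 6 lists, split by role (number of members in brackets), with a bar at the median of a role. Blue and red dots are called and grey ones are not; the 12 licensing genes all lie below 0, and the dot at -5.96 is TMEM97.

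MYCN, the amplified oncogene of this line, was lower too. It read 17.22, 17.12 and 17.06 with shNSC and 14.84, 15.25 and 15.24 with shERK5-4, a change of -2.02 ± 0.17 (adjusted p = 7.12e-09), which left 24.6% of the signal, while MYC (-0.26) did not pass the test. Of 28 measured genes of MYC targets and ribosome biogenesis 16 fell and 0 rose by limma (19 and 0 at an unadjusted p under 0.05), with a median of -0.56. SRM, the spermidine synthase, went from 12.4, 12.75 and 12.98 to 9.48, 8.42 and 8.81 (-3.81 ± 0.25). Among 20 nucleolar genes 14 fell, with NOP16 at -1.74, GAR1 at -1.56 and NOP14 at -1.30. Under the alternative settings 11 to 18 of the 28 were called. The 12 cytosolic ribosomal protein genes had a median of 0.00, 0 calls by limma and 1 at an unadjusted p under 0.05.

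Sterol synthesis genes fell together with their regulator. SREBF2, which encodes the transcription factor that switches on cholesterol synthesis and uptake, read 12.02, 11.99 and 11.95 with shNSC and 8.46, 7.97 and 7.83 with shERK5-4 (-3.90 ± 0.19, 6.70% of the control signal, adjusted p = 1.59e-12). Of the 28 measured genes of the list 16 fell and 0 rose by limma (17 and 0 at an unadjusted p under 0.05), with a median of -0.63. Early steps fell in 5 of 7 members, led by HMGCS1, which makes HMG-CoA and went from 12.22, 12.39 and 12.28 to 9.56, 9.46 and 9.19 (-2.89 ± 0.17). Late steps fell in 7 of 10, with HSD17B7 at -2.54, the epoxidase SQLE at -2.49, CYP51A1 at -2.38 and MSMO1 at -2.15. INSIG1, which retains the regulator in the endoplasmic reticulum, fell by 1.62, while SCAP (0.07) and INSIG2 (-0.08) did not pass the test.

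The letters TCACNCCAC of the sterol regulatory element, searched on both strands of the 250 bases before the start, occur in 310 of 35116 promoters (0.883%). Of the measured genes with a promoter, 172 hold them in any of their promoters and 14078 do not. Among the 25 measured list members with a promoter, 1 holds them. That member is SREBF2, shown because it is the regulator of the list, with the letters in capitals. The window is at chr22:41832936-41833015, plus strand, RefSeq GRCh38.p14.
SREBF2: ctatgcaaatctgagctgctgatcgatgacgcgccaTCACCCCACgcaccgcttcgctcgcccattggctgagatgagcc

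Fatty acid synthesis did not follow, with 3 of 18 genes higher and 2 lower. ACACB, the mitochondrial acetyl-CoA carboxylase, rose by 2.35 ± 0.24 and ACACA, the cytosolic one, fell by 0.83 ± 0.18.

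Genes that report ERK signalling were lower in 15 of 32 and higher in 1, with a median of -0.57. EGR1, an immediate early transcription factor, went from 11.11, 11.52 and 11.66 to 7.8, 7.81 and 8.03 (-3.55 ± 0.20, adjusted p = 1.34e-11). DUSP6, the phosphatase that switches off ERK1 and ERK2, went from 11.61, 11.7 and 11.72 to 9.28, 8.96 and 9.17 (-2.54 ± 0.18). The immediate early gene IER3 read 13.81, 14.01 and 13.99 against 10.67, 11.06 and 11.45 (-2.88 ± 0.18). These genes were lower in every shERK5-4 array. The feedback inhibitors SPRY4 (-1.75) and SPRY2 (-1.60) and the ETS factor ETV1 (-1.63) fell too. Immediate early genes were not lower throughout, with 6 of 16 called.

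Adrenergic neuroblastoma identity was partly lower. Of 17 transcription factors that define this sympathetic state 5 fell and 1 rose, with a median of -0.39. ISL1, a LIM homeobox factor, read 13.8, 13.8 and 13.91 with shNSC and 11.05, 10.48 and 10.97 with shERK5-4 (-3.00 ± 0.19), KLF7 fell by 1.64 and INSM2 by 1.32. HAND2 (-0.42), GATA3 (0.41), PHOX2A (-0.55) and TBX2 (-0.39) did not pass the test, though GATA3 was called at 0.65 without shERK5-4 replicate 1. Of the 10 measured markers of the lineage, which share members with these lists, 7 fell and 0 rose by limma (9 and 1 at an unadjusted p under 0.05), with a median of -0.95.

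In the catecholamine list, which holds genes of synthesis, storage, uptake and breakdown, 9 of 19 fell and 3 rose. QDPR, which regenerates the cofactor tetrahydrobiopterin, went from 9.31, 9.46 and 9.2 to 6.12, 5.52 and 6.25 (-3.36 ± 0.21), and TH, the first enzyme of the pathway, changed by -0.84, a call with arrays that overlap. The granins CHGA (-2.45 ± 0.20) and CHGB (-1.23 ± 0.20) and the secretory peptide gene VGF (-1.90 ± 0.16) fell, while SCG5 (0.98) and SCG3 (0.86) rose. The secretory granule genes therefore split in direction.

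Neuronal genes moved both ways, with 12 of 43 higher, 10 lower and a median of 0.05. Of the RNA binding proteins of neurons 4 of 8 rose, with NOVA1 going from 7.42, 7.87 and 7.31 to 9.82, 10.6 and 10.12 (2.65 ± 0.22), CELF3 at 2.75 and ELAVL2 at 1.26, and ELAVL4 fell by 1.49. The neurofilament genes NEFL (-1.34), NEFM (-1.71) and NEFH (-1.82) and the microtubule gene MAP1B (-2.07) fell, whereas the intermediate filament genes PRPH (1.58) and INA (0.69) and the microtubule end binding gene MAPRE3 (2.85) rose. INA was no longer called when shNSC replicate 2 (0.58) or shERK5-4 replicate 3 (0.56) was left out. DLG4, the scaffold of excitatory synapses, rose from 6.53, 6.65 and 6.87 to 9.09, 9.93 and 9.37 (2.78 ± 0.25), while SNAP25 (-1.08) and SYT1 (-1.32) of vesicle release fell. Mesenchymal identity genes were called in 3 of 23 members as higher and in 5 as lower, with SNAI2 at -2.52 and SNAI1 at 1.35.

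Genes of the small RNA machinery, which processes and uses the hairpins, were higher in 7 of 16 and lower in 1, with a median of 0.36. AGO4, an Argonaute, read 5.26, 5.42 and 5.26 against 6.65, 6.86 and 6.53 (1.37 ± 0.18), and the partner scaffolds TNRC6A (1.03), TNRC6B (0.94) and TNRC6C (0.89) rose. LIN28B, which blocks let-7 maturation, rose by 1.27 ± 0.22. XPO5, the exporter of hairpin precursors, fell by 0.97 ± 0.17. AGO2 (0.17) and DICER1 (0.34) did not pass the test.

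Lysosome and autophagy genes were higher in 12 of 43 and lower in 3, with a median of 0.24, and 10 of the 12 belong to the 24 autophagy genes. ATG4D, a protease that processes ATG8 proteins, rose by 2.28 ± 0.17, the mannose 6-phosphate receptor M6PR by 2.09 ± 0.18 and WIPI2 by 1.28 ± 0.15, while the scramblase ATG9A fell by 1.61 ± 0.19. In sphingolipid metabolism both lactosylceramide synthases fell (B4GALT5 by 2.70 ± 0.15), and 3 of 6 breakdown genes rose, the ceramidase ASAH1 by 1.49 and the sphingomyelinase SMPD1 by 1.75. Microtubule motor genes were higher in 7 of 25 and lower in 2, with the dynactin subunit DCTN5 at -2.60.

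Apoptosis regulators were lower in 6 of 25 and higher in 4. BCL2, a survival gene, went from 10.38, 10.5 and 10.63 to 7.91, 7.86 and 7.83 (-2.64 ± 0.17), the caspase inhibitor XIAP fell by 1.69 and the caspase CASP2 by 2.29, while the survival gene BCL2L1 rose by 1.27. Among p53 targets 4 of 21 rose and 2 fell, with MDM2 at 2.28 ± 0.17. CDK inhibitors and growth arrest genes had 3 of 14 higher and 3 lower. GADD45A fell by 2.98 ± 0.20 and CCNG2 rose by 2.04 ± 0.19, while the 6 measured INK4 and CIP/KIP inhibitor genes had 0 calls by limma and 0 at an unadjusted p under 0.05.

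Actin and contractile genes were lower in 8 of 22 and higher in 1, with SYNPO at -2.50 and MYH10, a non-muscle myosin, at -1.62. Extracellular matrix genes fell in 9 of 38 and rose in 4. TGFBI, a matrix protein induced by TGF-beta, went from 11.93, 11.94 and 12.24 to 8.39, 8.89 and 8.48 (-3.45 ± 0.19), and LUM, a small proteoglycan, from 14.66, 14.53 and 14.27 to 11.55, 11.39 and 11.02 (-3.17 ± 0.19). Of the 10 measured fibroblast markers 3 fell and 1 rose, with a median of 0.16, and DCN changed by -0.56. The part of these markers in the matrix result was not tested. In RNA from whole wells, fewer cells of a type and less RNA per cell cannot be told apart. TGF-beta and BMP genes were lower in 7 of 35 and higher in 6, with SKIL, a SMAD repressor, at 2.32. The YAP/TEAD list, which holds the factors and their targets, had 5 of 20 lower and 2 higher. Among its 14 measured targets 5 were lower and 1 higher.

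The remaining lists are given by their counts, beside 11.7% of all probes lower and 12.2% higher. ER chaperone and degradation genes were lower in 12 of 39 and higher in 4, with FAF2, which recruits the segregase p97 to the membrane, at -3.72 ± 0.16. In the ATF4 and amino acid list 9 of 31 rose and 3 fell, with the cystine transporter SLC7A11 at 1.58 and SHMT2, of mitochondrial serine metabolism, at -1.70. Hypoxia and glycolysis genes were lower in 7 of 29 and higher in 4, with ENO1 at -1.43. In glutamate metabolism 2 of 12 fell, GLUD1 by 2.06, and 1 rose. Oxidative phosphorylation had 3 of 26 higher and 2 lower, interferon-stimulated genes 5 of 28 higher and 1 lower, and antigen processing 1 of 14 in each direction. Of 15 NF-kB targets NFKB2 rose by 0.53 and NFKB1 fell by 0.69, and 0 of them were called by limma without shNSC replicate 3 or without shERK5-4 replicate 1. Single arrays also moved other small counts, with 10 ER genes called without shNSC replicate 1, 9 oxidative phosphorylation genes without shERK5-4 replicate 2 and 1 antigen processing gene without shNSC replicate 2. Endothelial markers had 0 of 8 calls by limma and 0 at an unadjusted p under 0.05. Of 7 Schwann cell markers S100B rose by 0.66, a call that ended when shNSC replicate 1 or shERK5-4 replicate 2 was left out. Of 9 blood markers PTPRC fell by 1.95 ± 0.17.

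The second hairpin against ERK5 was compared directly with shERK5-4 in the same line. MAPK7 did not separate the hairpins, with shERK5-5 arrays at 6.14, 6.02 and 6.28 and a difference of shERK5-4 from shERK5-5 of -0.06 ± 0.19. In contrast, 5246 probes (24.5%) differed between the hairpins, 2538 higher (11.8%) and 2708 lower (12.6%) with shERK5-4. Against shNSC, shERK5-5 changed 2752 probes (12.8%), 1450 higher (6.76%) and 1302 lower (6.07%). The comparisons of each hairpin with shNSC share the 3 shNSC arrays, and the direct comparison of the hairpins shares the 3 shERK5-4 arrays with the results above, so values are set side by side only.

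The genes given here were picked by the size of the difference between the hairpins. TMEM97, RTN3 and PPIL1 are also among the 12 deepest decreases of shERK5-4. Not every deep decrease was absent with shERK5-5, which against shNSC lowered 1 of the 2 lactosylceramide synthase genes and raised the other. TMEM97 read 13.71, 13.75 and 14.08 with shERK5-5, close to shNSC, and the hairpins differed by -5.90 ± 0.16 (adjusted p = 2.2e-16). RTN3 read 13.27, 13.44 and 13.76 with shERK5-5 (difference -5.16 ± 0.19) and PPIL1 13.76, 13.88 and 14.01 (-4.89 ± 0.20). HGF, hepatocyte growth factor, moved in opposite directions, with shNSC arrays at 9.12, 8.95 and 8.73, shERK5-4 arrays at 5.63, 6 and 6.02 and shERK5-5 arrays at 10.79, 10.97 and 11.21 (difference -5.11 ± 0.20). The matricellular gene SPARCL1 (-4.73 ± 0.22) and TMEM9B (-4.62 ± 0.25) were likewise below shNSC with shERK5-4 and above it with shERK5-5.

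On the higher side, PTBP2 read 9.41, 9.6 and 9.64 with shERK5-5, below shNSC, and differed by 4.72 ± 0.15. The TGF-beta receptor gene TGFBR1 read 6.82, 6.7 and 6.85 with shERK5-5 and differed by 3.79 ± 0.19. Its increase with shERK5-4 was small (0.64 ± 0.19, adjusted p = 0.0161) and was not called when shNSC replicate 3 (adjusted p = 0.0834), shERK5-4 replicate 1 (adjusted p = 0.0802) or its replicate 3 (adjusted p = 0.0523) was left out, so most of the gap lay in shERK5-5. CHML, a Rab escort protein (3.67), SHD, a signalling adaptor (3.63), the glycoprotein hormone STC1 (3.60) and the microtubule severing enzyme SPAST (3.53) were above shNSC with shERK5-4 and below it with shERK5-5. ABCA12 (0.25 ± 0.21) and NECTIN1 (0.61 ± 0.25, adjusted p = 0.088) did not differ between the hairpins past the threshold.

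By list, 37 of 54 G1/S genes were lower with shERK5-4 than with shERK5-5 and 1 higher, with a median difference of -0.78. Of 44 mitotic genes 34 were lower (-0.86). With shERK5-5 against shNSC, 14 of these mitotic genes rose and 1 fell, and BIRC5 was at 1.75 where shERK5-4 gave -2.68. In the sterol list 16 of 28 were lower with shERK5-4 than with shERK5-5 and 1 higher (-0.90), and SREBF2 differed by -3.74 ± 0.19. The hairpins differed in MYCN by -1.22 ± 0.17, where shERK5-5 gave -0.80 against shNSC. In the ERK output list 16 of 32 were lower and 1 higher, and in the repair list 13 of 19 were lower and 1 higher. For the ERK5 cascade and its reported targets 7 of 18 were lower with shERK5-4 than with shERK5-5 and 0 higher. Their median change against shNSC was -0.22 with shERK5-4 and 0.05 with shERK5-5.

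The same hairpin in CHLA-90 shares no array with the comparison in SK-N-BE(2). There, shERK5-4 changed 3918 probes (18.3%), 2149 higher (10.0%) and 1769 lower (8.25%). Both lines called 2338 probes, 2237 of them in the same direction (1165 higher, 1072 lower) and 101 in opposite directions. The shared direction covers 43.6% of the calls in SK-N-BE(2) and 57.1% of those in CHLA-90. TMEM97 (-4.63 in CHLA-90), RTN3 (-5.06), SKP2 (-3.70), SREBF2 (-3.58), SYNPO2 (-5.16), NECTIN1 (3.97) and DYNLRB1 (3.04) moved strongly in both. MYCN, with 8.78, 8.63 and 8.99 in the CHLA-90 controls, changed by -1.89 there, and its response did not differ between the lines past the threshold (-0.14 ± 0.24, adjusted p = 0.83).

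The response differed between the lines at 1550 probes (7.23%), of which 715 (3.33%) changed more positively and 835 (3.89%) more negatively in SK-N-BE(2). B4GALT6 fell far more in SK-N-BE(2) (difference -4.20 ± 0.28), and its CHLA-90 controls stood lower, at 8.04, 8.18 and 7.87. IER3 (-3.64 ± 0.25), the axon guidance gene SEMA3A (-3.56 ± 0.23), the vesicle gene SYT9 (-3.71 ± 0.26) and LONRF2 (-3.33 ± 0.22) fell in SK-N-BE(2) and rose in CHLA-90. CRABP2, a retinoic acid binding protein, fell by 3.04 in SK-N-BE(2) and was at 0.46 in CHLA-90 (difference -3.50 ± 0.24).

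The GDNF family receptor gene GFRA2 read 9.7, 9.71 and 10.03 with shNSC and 12.28, 11.34 and 11.81 with shERK5-4 in SK-N-BE(2), and 10.9, 10.69 and 10.72 against 8.22, 7.88 and 7.96 in CHLA-90 (difference 4.75 ± 0.33). The receptor gene ADCYAP1R1 (3.90 ± 0.30) and the repressor SNAI1 (3.71 ± 0.26) also rose in SK-N-BE(2) and fell in CHLA-90. For DBH (4.20 ± 0.36) the signal fell in both lines, from a dim level in SK-N-BE(2) and by 5.27 in CHLA-90. SLITRK6 was at -0.20 in CHLA-90, a difference of 3.76 ± 0.31 between the lines. IGFBP5 differed by 3.70 ± 0.40, but its increase in SK-N-BE(2) (0.84 ± 0.28, adjusted p = 0.0315, arrays overlapping) was not stable as a call. It was not called when shNSC replicate 1 (0.76, adjusted p = 0.107) or replicate 2 (0.55, adjusted p = 0.218) was left out, nor when shERK5-4 replicate 1 (0.64, adjusted p = 0.153) or replicate 3 (0.75, adjusted p = 0.103) was.

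**Figure D5:**
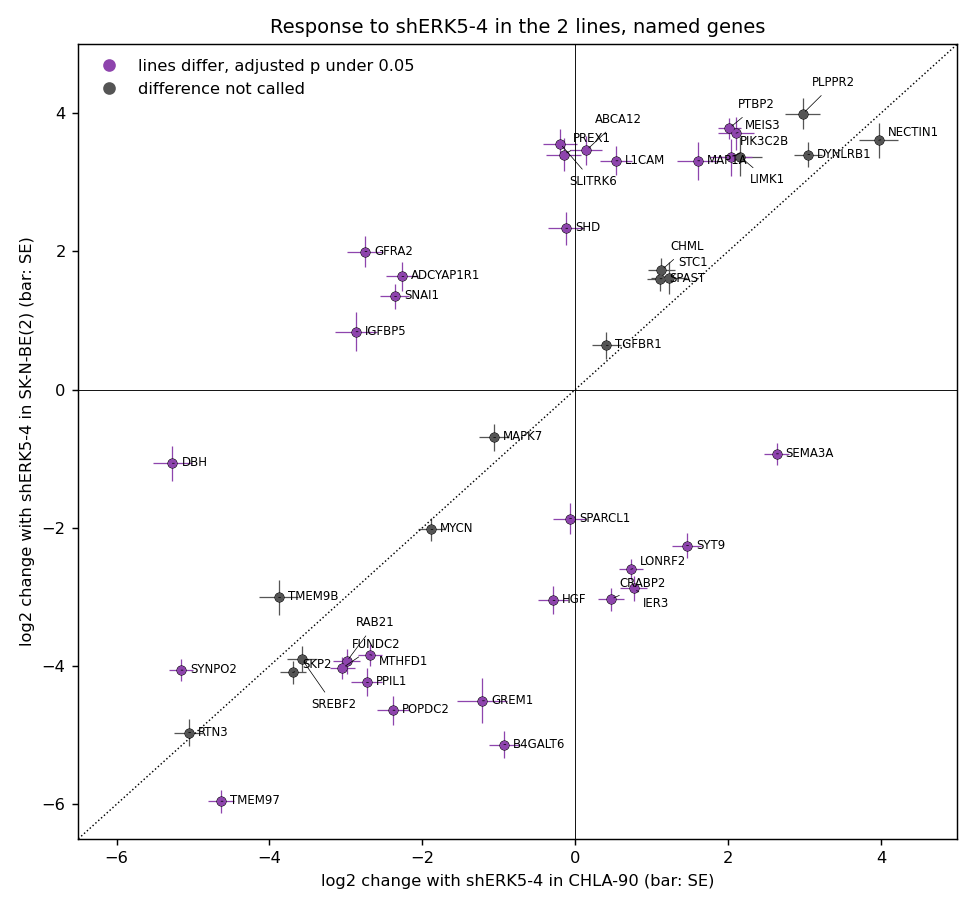
Log2 change with shERK5-4 in CHLA-90 (x axis) and in SK-N-BE(2) (y axis) for the named genes, with standard errors as bars and the line of equal change dotted. Genes in purple differ between the lines at adjusted p under 0.05; RTN3 and SREBF2 lie near the dotted line, and GFRA2 (4.75) and B4GALT6 (-4.20) lie far from it.

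By list, the lines differed for MYC targets and ribosome biogenesis, where 8 of 28 genes changed more negatively in SK-N-BE(2), and CHLA-90 had 1 higher and 1 lower. NOP16 changed by 0.14 in CHLA-90 against -1.74. For G1/S genes 13 of 54 changed more negatively in SK-N-BE(2), with 19 lower in CHLA-90. Catecholamine genes went the other way, with 8 of 19 changed more positively in SK-N-BE(2) and 2 more negatively, and 11 lower in CHLA-90. Sterol genes fell in 16 of 28 in each line, and 6 of the 28 changed more negatively in SK-N-BE(2) and 1 more positively, with a median difference of -0.29.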

How the data were processed

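Whole-transcript arrays with biotin label were deposited as log2 signals, 1 per probe and array with 2 decimals, already processed. The authors' summarisation, normalization, software, genome build and log base are not given in the sources used; base 2 was taken from how far the values span. No detection calls were used. Of 21448 probes 17709 had 1 gene symbol in the probe table, 0 several and 3739 none (633 of these unnamed probes were called).

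A single model (limma 3.58.1, R 4.3.3) of 6 group means covered all 18 arrays (12 residual and 9.588 prior degrees of freedom), with Benjamini-Hochberg adjustment over all probes, a threshold of 0.05 and no minimum fold. Errors are standard errors of the model unless SD is named. The fit was tested on simulated data.

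The members, lists and naming rules were chosen with earlier results of these data known. Named are MAPK7, MYCN, SREBF2 and E2F1, the 12 greatest changes in each direction with arrays that do not overlap, 6 in each direction between hairpins and between lines, and up to 6 list members with the smallest p. Loci known only by number were passed over. Other members given with values show a list's roles and were picked after their values were seen. Alternatives covered scaling, filters, arrays in the fit, weights, thresholds, a replicate block and leaving out each array. Same-numbered shNSC and shERK5-4 arrays deviated together with r = -0.02, 0.04 and 0.18, so the numbers were not taken as pairs. Any 2 arrays of a group held identical values at no more than 1.70% of probes. Plots used Python 3.11.15 and matplotlib 3.10.9.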

Additional observations from a re-analysis of the deposited data

Results flagged for a closer look

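Under the same hairpin the change with shERK5-4 differed between SK-N-BE(2) and CHLA-90 at 1550 probes, by a test of the difference itself (limma, adjusted p under 0.05). For each gene named here the value is the log2 change in SK-N-BE(2) minus that in CHLA-90. No explanation was tested.

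Among the genes with the deepest decreases in SK-N-BE(2), the decrease was larger there for B4GALT6 (-4.20), GREM1 (-3.29), POPDC2 (-2.26), PPIL1 (-1.51), TMEM97 (-1.32), MTHFD1 (-1.15), FUNDC2 (-0.98) and RAB21 (-0.94). For SYNPO2 it was smaller (1.10). Among the greatest increases the difference was 3.76 for SLITRK6, 3.55 for PREX1, 3.32 for ABCA12, 2.78 for L1CAM, 1.77 for PTBP2, 1.71 for MAP1A, 1.61 for MEIS3 and 1.32 for PIK3C2B.

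Other genes called in SK-N-BE(2) also differed between the lines, by 4.75 for GFRA2, 4.20 for DBH, 3.90 for ADCYAP1R1, 3.71 for SNAI1 and 3.70 for IGFBP5 on the positive side. On the negative side the differences were -3.71 for SYT9, -3.64 for IER3, -3.56 for SEMA3A, -3.50 for CRABP2 and -3.33 for LONRF2. Groups of 3 arrays are too small to look for single outlying arrays.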

How the results depend on the processing

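The count of 5133 probes called with shERK5-4 lay between 4213 (the 6 arrays alone) and 5338 (replicate block) under other scalings, filters and fits, between 4368 and 4922 without 1 array, at 4589 with a minimum fold of 1.5 and at 3691 with an adjusted p under 0.01. The hairpin difference of 5246 probes lay between 3858 and 5441. The line difference of 1550 probes lay between 1094 and 1563 without 1 array, at 1664 with the replicate block, at 2000 with array weights and at 756 with an adjusted p under 0.01. MAPK7 lay between -0.86 and -0.59 without 1 array. Of 234 named genes called with shERK5-4, 218 were called under every alternative run for them and 16 were lost under some, and no value changed sign. The numbers of the replicates were not taken as pairs: 2 of 3 shERK5-4 arrays correlated best with the shNSC array of their own number, and with the replicate block MAPK7 had an adjusted p of 0.0135, the call of NFKB2 was lost and those of CDK4 and PHOX2A were gained. Log2 signals without detection calls do not show which dim probes lie at background, and 3 arrays a group limit the precision.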
